A study of Arabidopsis thaliana with 12 samples.

Results

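The genes described here encode proteins of the thylakoid membrane machinery that captures light: LHB1B2 (AT2G34420, also LHCB1.5), PSAN (AT5G64040), PSBW (AT2G30570), PSB27 (AT1G03600) and PSBY (AT1G67740). They were chosen by name, as array features annotated with exactly 1 gene. Each of the 5 genes has 1 such feature, out of 692 features with 1 gene and 3439 features in all.

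Photosystem II and photosystem I are pigment-protein complexes that use light to move electrons from water towards ferredoxin. Light-harvesting complex II, built largely from LHCB1 proteins, is the main antenna of photosystem II and can also pass energy to photosystem I. The core subunits that bind the reaction-centre pigments are encoded in the plastid, while the antenna proteins and many small or lumenal subunits, including all the genes described here, are encoded in the nucleus and imported. Transcripts of nuclear antenna genes are known in Arabidopsis to respond to light, to photoreceptors, to the circadian clock and to signals from the plastid.

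Expression was measured in total RNA on 12 arrays of 1 channel each, and all plants were wild-type Arabidopsis thaliana, ecotype Columbia 0. In 6 samples the plants were light adapted, and in the other 6 they had been in darkness for 1 h and were then returned to light, here called recovery. The recovery time is 2 h in the titles and descriptions and 1 h in the source names, and the labels do not settle which holds. They give no organ, age or light intensity, and without a sample from the end of the dark period, darkness and re-illumination cannot be told apart as sources of a difference. Whether replicates came from separate plants is not stated, so the p-values below cover the scatter of these arrays, which can be technical.

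The deposited values are intensities from 0 to a ceiling of 100, read here as linear. Between 3 and 8 features an array lay at the ceiling, none of them a feature described here. The total per array ran from 2286 to 3314, and the totals of same-numbered light-adapted and recovery arrays differed by 0.0789% to 2.51%. Arrays 1 and 2, 3 and 4, and 5 and 6 had like totals in both groups and are called sets below, a division taken from the values. Array medians, with zeros counted, were lower in recovery, at 0.0358 to 0.0400 against 0.0710 to 0.103. On average 20.0% of the features were at exactly 0 on a light-adapted array and 25.6% on a recovery array. Over the 2364 features tested, the median log2 difference, recovery minus light adapted, was -0.82 on the deposited scale and -0.04 after quantile normalization. It was 0.19 after median centring, where each array was centred on the median of its values above 0. In the brightest 25% of those features, 591 in number, the deposited-scale median was -0.0053. None of 13 marker genes of leaf mesophyll, root, pollen, seed, guard cells and phloem was alone on a feature, so the organ could not be checked. In RNA of whole samples, fewer cells of a type and less RNA per cell cannot be told apart.

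In recovering plants the signal of PSBW, a small photosystem II subunit, was 3.68 times its light-adapted mean, and that of the antenna gene LHB1B2 was 0.613 times. After quantile normalization PSBW rose by 1.48 on the log2 scale and LHB1B2 fell by 1.28, both called by limma at an adjusted p under 0.05. PSB27, an assembly factor of photosystem II, was at -1.35, which passed when same-numbered arrays were paired and not otherwise on that scale with all arrays in. PSAN, of photosystem I, at -0.29, and PSBY, another small photosystem II subunit, at 0.19, did not pass. The calls thus numbered 2 of 5 genes, 1 in each direction. Of all tested features 36.9% were called, 18.5% as higher and 18.4% as lower, so the count is near that of the features in general. In a fit of only the 1429 features above 0 on every array, as all 5 genes were, 50.7% were called. The count there was again 2 of 5 genes. With arrays paired by number, 3 of 5 genes were called after quantile normalization and on the deposited scale, PSBW as higher and LHB1B2 and PSB27 as lower, where 35.2% and 47.8% of all features were called. Unpaired, PSBW alone was called on the deposited scale (46.4% of all features). Centring on the brightest 25% of the features called PSBW and PSBY as higher and LHB1B2 as lower (43.4%). Paired by number on that scale, with a replicate block, PSBW (limma adjusted p = 0.000448) and PSBY (0.0460) were again called as higher, PSB27 was called as lower (0.0230) and LHB1B2 was not called (0.0506), where 43.4% of all features were called. Unpaired centring on the array median called PSBW, PSBY and PSAN as higher (41%).

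**Figure D1:**
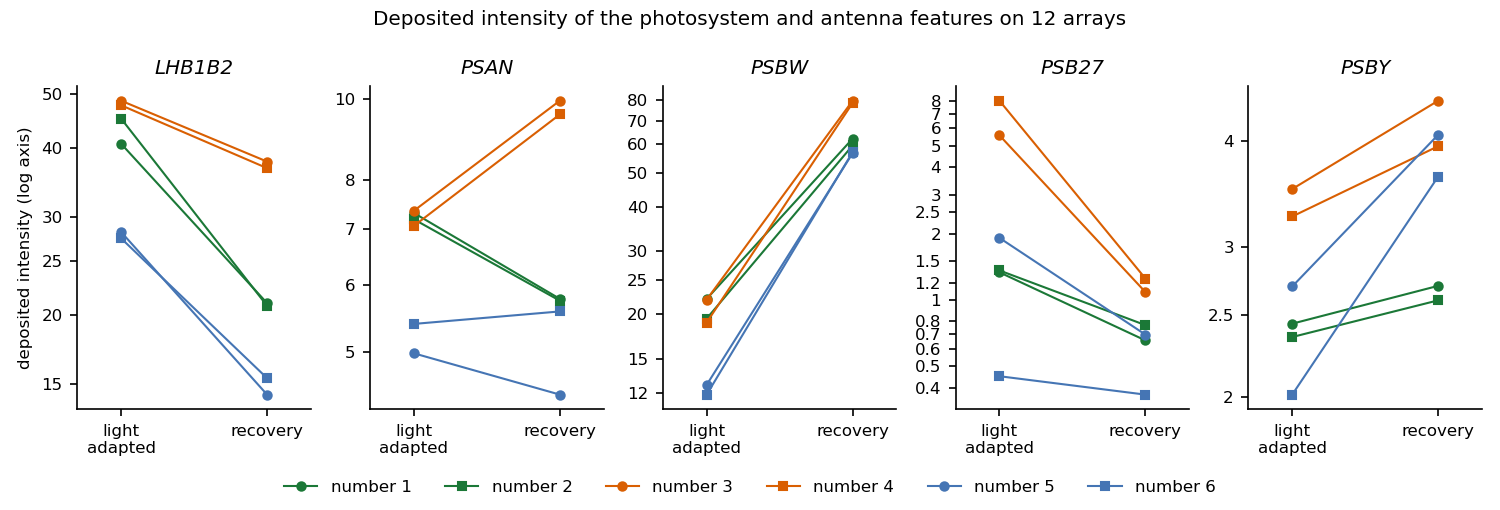
Deposited intensity (log axis, unit of the deposited table) of each gene's feature on the 6 light-adapted and 6 recovery arrays. Points are arrays, lines join arrays of the same number, and colours mark arrays 1 and 2, 3 and 4, and 5 and 6. The PSBW recovery arrays sit between 56.7 and 79.6, all above the light-adapted arrays at 11.9 to 22.1, while every LHB1B2 and PSB27 line slopes down and the PSAN lines split.

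LHB1B2 encodes a chlorophyll a/b-binding protein of the LHCB1 type, a main building block of light-harvesting complex II. Its deposited intensity had a lowest value of 27.5, a median of 43.0 and a highest value of 48.7 in light-adapted arrays, and 14.3, 20.9 and 37.8 in recovery arrays. The groups overlap, because recovery arrays 3 and 4, at 37.8 and 36.8, were above light-adapted arrays 5 and 6, at 28.2 and 27.5. Within each number the recovery array was lower, with recovery-to-light-adapted ratios of 0.515, 0.459, 0.776, 0.770, 0.508 and 0.559 for numbers 1 to 6. On the deposited scale 550 features had a lower recovery value in all 6 pairs. These were 23.3% of those tested, all among the 1429 above 0 on every array.

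The means of LHB1B2 were 39.7 ± 9.59 light adapted and 24.3 ± 10.4 in recovery (SD, n = 6 each). After quantile normalization the difference was -1.28 ± 0.157 (SE, limma adjusted p = 5.62e-05), and it was called too with same-numbered arrays paired as a replicate block (limma adjusted p = 0.00223). On the deposited scale the log2 difference was -0.77. It was not called in the unpaired fit (limma adjusted p = 0.0551) and was called in the paired fit, with the number as a replicate block (limma adjusted p = 0.0161). That paired call held when any 1 of the 6 pairs was left out, with limma adjusted p-values from 0.0231 to 0.0491. Each time the other pair of the same set stayed in, and leaving a whole set out of the paired fit was not tested. LHB1B2 was not called when each set of arrays was averaged and counted as 1 sample, 3 against 3, on the deposited scale (limma adjusted p = 0.263 unpaired and 0.151 paired by set). With sets averaged after quantile normalization, unpaired, it was called at a weaker limma adjusted p of 0.0328, where 17.1% of all features were called. Centring on the array medians turned the sign, at 0.22 (limma adjusted p = 0.467).

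PSBW encodes a small membrane-spanning subunit known to stabilise the association of photosystem II with its antenna. Its deposited intensity ran from 11.9 through a median of 19.2 to 22.1 in light-adapted arrays and from 56.7 through 60.9 to 79.6 in recovery arrays. The groups do not overlap, and the lowest recovery array stood above the highest light-adapted one. On the deposited scale, groups did not overlap with recovery higher for 138 features. These were 5.84% of those tested, all among the 1429 above 0 on every array. The ratio within same-numbered arrays was 2.82, 3.07, 3.62, 4.14, 4.48 and 4.80 for numbers 1 to 6. The fold was smallest in arrays 1 and 2 and largest in arrays 5 and 6, where the light-adapted signal was lowest.

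The means of PSBW were 17.8 ± 4.50 light adapted and 65.6 ± 10.6 in recovery (SD, n = 6 each). The feature took 0.658% ± 0.135 of the summed intensity of the light-adapted arrays and 2.41% ± 0.0681 of that of the recovery arrays (SD, n = 6 each). The log2 difference was 1.48 ± 0.212 after quantile normalization (SE, limma adjusted p = 0.000174) and 1.91 on the deposited scale (limma adjusted p = 4.65e-05). It was called in every fit run, on each scale, with and without the replicate block and with sets averaged, at log2 differences from 1.19 to 2.91. The size depended on the scale, and the lowest value came without arrays 5 and 6 of both groups and the highest from median centring.

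PSB27 encodes a lumenal protein known to take part in the assembly and repair of photosystem II rather than in the finished complex. Its light-adapted intensity had a lowest value of 0.452, a median of 1.64 and a highest value of 8.01, and its recovery intensity ran from 0.373 through 0.733 to 1.25. Light-adapted arrays 3 and 4, at 5.58 and 8.01, stood far above the other light-adapted arrays, and array 6 was lowest in both groups. The coefficient of variation was 96.3% in the light-adapted group and 39.3% in recovery, and the light-adapted one was the widest of the 5 genes. Recovery was lower within every number, with ratios of 0.491, 0.565, 0.195, 0.156, 0.364 and 0.825. The same held for 550 features on the deposited scale, 23.3% of those tested and all among the 1429 above 0 on every array. After quantile normalization PSB27 was lower in 5 of the 6 pairs.

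The quantile-normalized difference of PSB27 was -1.35 ± 0.550 (SE) and did not pass (limma adjusted p = 0.0736). In the fit paired by number the same difference passed (limma adjusted p = 0.0364), as did the deposited-scale difference of -1.44 (limma adjusted p = 0.0163 with the block, 0.0740 without it). On the deposited scale the paired call held without any 1 pair, at limma adjusted p-values from 0.0140 to 0.0424. The other pair of the same set stayed in each time, and leaving a whole set out of the paired fit was not tested. With each set averaged on the deposited scale PSB27 was not called (limma adjusted p = 0.206 unpaired and 0.0994 paired by set). Single arrays moved the unpaired result: without light-adapted replicate 6 it was -1.78 and called (limma adjusted p = 0.00712). Without arrays 3 and 4 of both groups it was -0.73 (limma adjusted p = 0.315), and with sets averaged after quantile normalization it was not called (limma adjusted p = 0.210).

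PSBY encodes small membrane proteins of photosystem II that are cut from 1 precursor. Its intensity ran from 2.01 through a median of 2.57 to 3.51 in light-adapted arrays and from 2.60 through 3.79 to 4.46 in recovery arrays. The groups overlap, while within each number the recovery array was higher, by ratios of 1.108, 1.104, 1.27, 1.21, 1.51 and 1.80. With PSBW, 2 of the 5 genes were higher in all 6 pairs on the deposited scale. So were 247 features in all, 10.4% of those tested and all among the 1429 above 0 on every array. After quantile normalization PSBY was higher in 4 pairs and lower in 2, numbers 1 and 2, at -0.059 and -0.108.

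The difference of PSBY was 0.19 after quantile normalization, with a 95% interval from -0.22 to 0.61 (limma adjusted p = 0.455), and 0.39 on the deposited scale, with an interval from -0.11 to 0.89 (limma adjusted p = 0.176). Pairing by replicate number on the deposited scale left it uncalled (limma adjusted p = 0.115). Centring on the brightest 25% of the features gave 0.56 and a call (limma adjusted p = 0.0276), and median centring gave 1.39 and a call (limma adjusted p = 0.000111). Without arrays 5 and 6 of both groups the quantile-normalized value was -0.018.

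PSAN encodes a lumenal subunit of photosystem I on the side where plastocyanin delivers electrons. Its intensity ran from 4.98 through 7.12 to 7.36 in light-adapted and from 4.44 through 5.76 to 9.95 in recovery arrays. The pairs disagree by set: the ratio was 0.790 and 0.800 for numbers 1 and 2, 1.35 and 1.36 for numbers 3 and 4, and 0.893 and 1.03 for numbers 5 and 6. The recovery group spans the whole light-adapted range, with a coefficient of variation of 33.8% against 16.3%.

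The difference of PSAN was -0.29 after quantile normalization, with a 95% interval from -0.74 to 0.15 (limma adjusted p = 0.291). On the deposited scale it was 0.02, with an interval from -0.53 to 0.57 (limma adjusted p = 0.961), which leaves room for a change of either sign. Median centring gave a call at 1.01 (limma adjusted p = 0.000872), and centring on the brightest 25% of the features gave 0.19 with no call (limma adjusted p = 0.447).

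**Figure D2:**
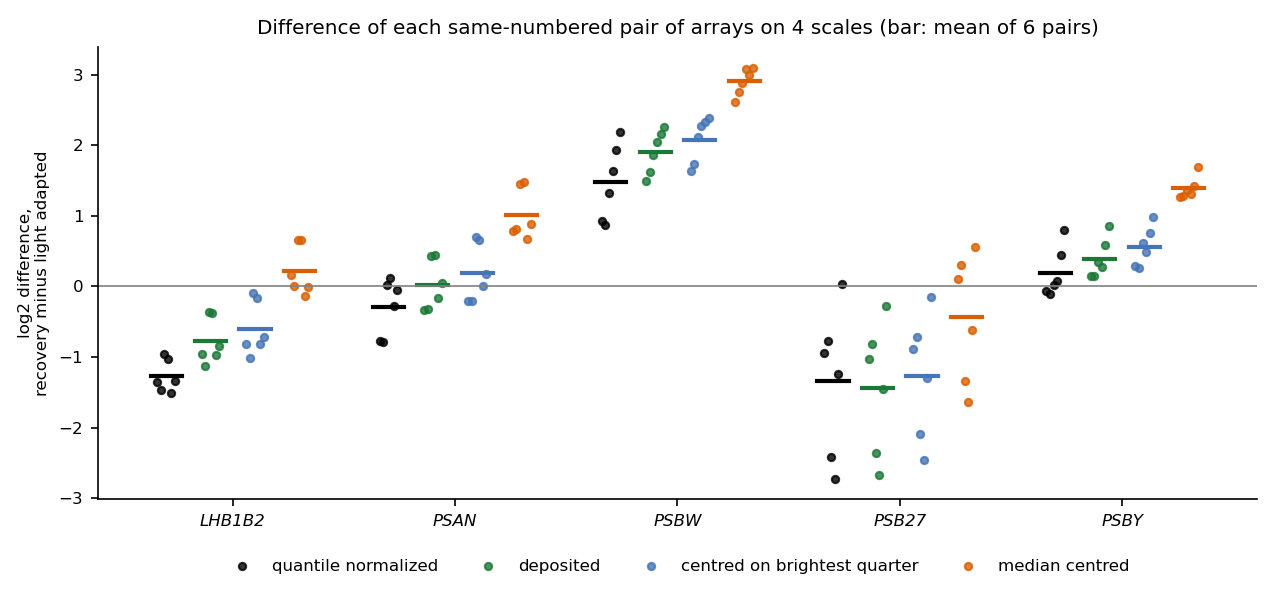
Log2 difference, recovery minus light adapted, of each same-numbered pair of arrays (points, 6 per gene and scale) on 4 scales, with the mean of the 6 pairs as a bar. The means of PSBW lie above 0 on all 4 scales, from 1.48 to 2.91, whereas those of LHB1B2 run from -1.28 to 0.22 and those of PSAN from -0.29 to 1.01.

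Median centring added the same amount to the deposited-scale difference of each gene. LHB1B2 went from -0.77 to 0.22, PSAN from 0.02 to 1.01, PSBW from 1.91 to 2.91, PSB27 from -1.44 to -0.44 and PSBY from 0.39 to 1.39. Quantile normalization moved the genes unequally, to -1.28 for LHB1B2, -0.29 for PSAN, 1.48 for PSBW and 0.19 for PSBY. PSB27 moved the other way, to -1.35. All 5 features had bright signals, with 91.5% to 99.5% of the tested features dimmer, and were above 0 on all 12 arrays, as were 1429 of the 3439 features. The median of the brightest 25% of the features, -0.0053 on the deposited scale, was near no change, while that of all tested features was -0.82. The cause of that shift was not tested.

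The rank of a signal on its own array does not depend on any rescaling that keeps the order of the features. LHB1B2 was the 11th to 13th brightest feature on the light-adapted arrays and the 22nd to 29th on the recovery arrays, with no overlap. PSBW went the other way, from between 22nd and 35th to between 9th and 12th, again with no overlap. In the ranks, groups did not overlap for 195 features with recovery lower and for 298 with recovery higher. These were 8.25% and 12.6% of the tested features, all among the 1429 above 0 on every array. Signals of different features are not comparable as transcript amounts, so these ranks describe the shift of each feature and not which transcript was the more abundant.

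PSBY was ranked between 106 and 149 on light-adapted and between 86 and 120 on recovery arrays. It was brighter in rank in all 6 pairs, as were 443 features (18.7% of those tested). LHB1B2 was dimmer in rank in all 6, as were 276 (11.7%). Both counts come only from the 1429 features above 0 on every array. PSB27 was ranked from 67 to 492 and from 244 to 472, lower in 5 of 6 pairs. PSAN, between 49 and 72 and between 60 and 80, gained rank in 2 pairs, lost it in 3 and kept it in the pair numbered 6.

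**Figure D3:**
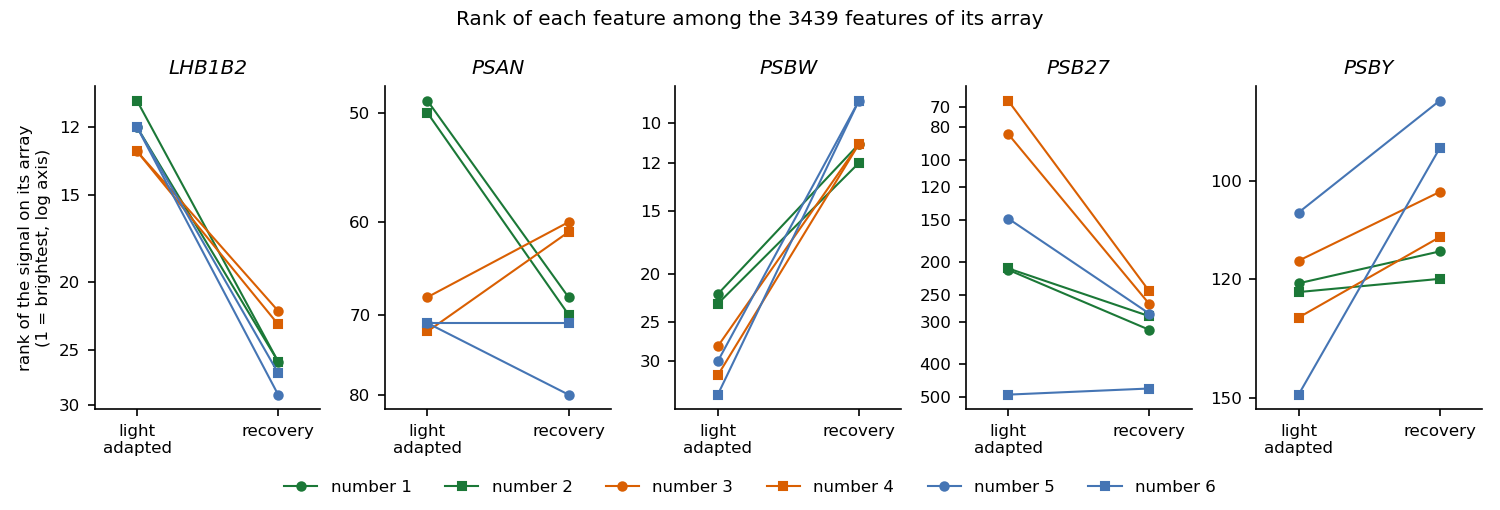
Rank of each gene's feature among the 3439 features of its array (log axis, 1 is the brightest and is at the top), for 6 light-adapted and 6 recovery arrays joined by number. LHB1B2 moved from ranks 11 to 13 to ranks 22 to 29, and PSBW from ranks 22 to 35 to ranks 9 to 12.

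A ratio between 2 features of the same array cancels any single scale factor of that array, although not a constant background, and shows whether 2 genes changed unequally. Of the 10 ratios among the 5 genes, 8 moved the same way in all 6 same-numbered pairs, as did 48.3% of the 1020306 ratios among the 1429 features above 0 on every array. The groups did not overlap for 6 of the 10, against 31% of those ratios. The 10 ratios share 5 genes, so these counts are descriptions, with no test. The ratio of LHB1B2 to PSBW was lower in recovery in each pair, between 0.113 and 0.214 of its light-adapted value, with a mean log2 change of -2.68 ± 0.379 (SD over 6 pairs). Since a factor per array leaves this ratio as it is, the antenna gene was lower relative to the small photosystem II subunit on the deposited scale and after each centring.

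The ratio of LHB1B2 to PSAN was the steadiest of the 10. It changed by -0.79 ± 0.0907 on the log2 scale (SD over 6 pairs) and stood at between 0.540 and 0.652 of its light-adapted value, although the pairs of each gene alone differed by set. LHB1B2 was lower relative to PSAN by a like amount in numbers 3 and 4, where both features had their highest recovery-to-light-adapted ratios, and in the other numbers. The ratio of PSBW to PSBY, both small photosystem II subunits, was the next steadiest, with a log2 change of 1.52 ± 0.149, or 2.55 to 3.42 times its light-adapted value. The 2 subunits were each higher in recovery on the deposited scale, yet by unequal amounts in all 6 pairs.

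Ratios with PSB27 were the least steady. PSBW to PSB27 was 5.43 to 26.5 times its light-adapted value, PSAN to PSB27 1.25 to 8.68 times, and PSB27 to PSBY 0.129 to 0.512 times. The largest changes came from numbers 3 and 4, where PSB27 was highest in light-adapted plants. LHB1B2 and PSB27 were the 2 genes with lower signals in every pair on the deposited scale. The ratio of LHB1B2 to PSB27 changed by 0.66 ± 1.21 on the log2 scale, up in 4 pairs and down in 2. The log2 change of PSAN to PSBY was -0.38 ± 0.414, lower in 4 pairs and higher in 2.

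**Figure D4:**
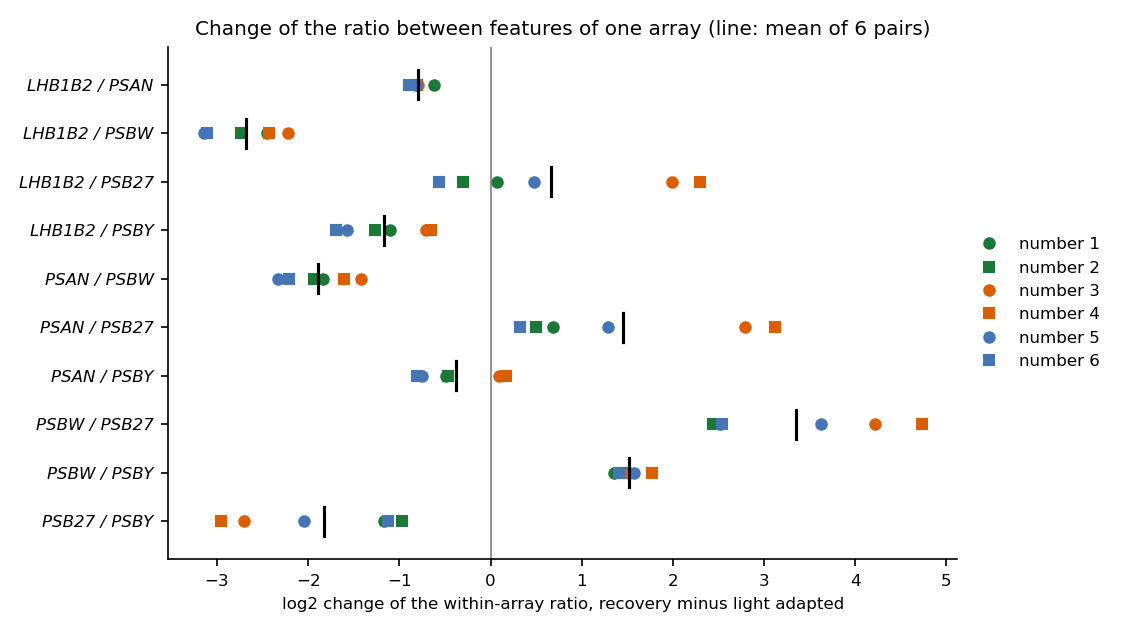
Log2 change, recovery minus light adapted, of the ratio between 2 features of the same array, for the 10 ratios among the 5 genes. Points are the 6 same-numbered pairs (colours mark arrays 1 and 2, 3 and 4, and 5 and 6) and the line is their mean, which is -2.68 for LHB1B2 to PSBW and 1.52 for PSBW to PSBY.

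Among 71 genes of the antenna, the photosystems, their assembly, electron transport, ATP synthase and the thylakoid kinases, 6 were alone on a feature: the 5 described above and LPA19 (AT1G05385), a relative of PSB27 known to assist the maturation of the D1 protein of photosystem II. Another 7 lay only on 4 features shared with other genes and are not named from them, and the rest were not found on a named feature. LPA19 was dim, from 0.0855 through 0.141 to 0.190 in light-adapted and from 0.0428 through 0.0925 to 0.130 in recovery arrays. Its difference was 0.21 after quantile normalization (limma adjusted p = 0.594) and -0.75 on the deposited scale (limma adjusted p = 0.0845), so its sign turned with the scale. In the paired fit on the deposited scale it was called as lower (limma adjusted p = 0.0487), but that call was lost with sets averaged and paired (limma adjusted p = 0.146). It was also lost without any 1 of pairs 1, 2, 3, 4 and 6, at limma adjusted p-values from 0.0810 to 0.120, and held without pair 5 (limma adjusted p = 0.0270). Unpaired, with arrays scaled to their totals, LPA19 was also called as lower, at -0.75 (limma adjusted p = 0.0350). The LPA19 signal was near the middle of the array, with 51.3% of the tested features dimmer.

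Likeness of pattern was measured as Pearson's r of quantile-normalized log2 intensities over 12 arrays, against the 257 other features with 1 gene that were above 0 on every array. These correlations share the arrays and their normalization and are descriptions. Over the 12 arrays, which include the difference between the groups, the closest to LHB1B2 were AT3G06570 (r = 0.989) and AT2G46630 (r = 0.986), and the closest to PSBW were AT1G51350 (r = 0.957) and OTP70 (r = 0.946), a gene for organelle RNA processing. For PSAN they were AT1G10310 (r = 0.888) and AT3G26630 (r = 0.872), for PSB27 AT1G20130 (r = 0.774) and AT2G46300 (r = 0.745), and for PSBY AT2G39360 (r = 0.783) and AT4G24750 (r = 0.776). None of these was another of the 5 genes.

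With the group means removed, deviations of LHB1B2 were closest to those of AT1G11470 (r = 0.733) and of PSAN (r = 0.703), the same 2 genes whose ratio was steady. Those of PSAN were closest to AT1G10310 (r = 0.926) and AT3G26580 (r = 0.894), those of PSBW to AT5G38360 (r = 0.855) and AT5G53920 (r = 0.849), and those of PSBY to XERICO (r = 0.817) and AT4G24750 (r = 0.795). PSB27 was closest to AT1G74470 (r = 0.825), which encodes geranylgeranyl reductase of chlorophyll synthesis, and to AT2G28660 (r = 0.761). The mean deposited intensity of AT1G74470 was higher in recovery, at 3.10 against 2.44, unlike that of PSB27. Among the 5 genes, deviations of PSBW went with those of PSAN (r = 0.646) and PSBY (r = 0.632), while PSBW and LHB1B2, which separated the groups in opposite directions, had deviations with an r near 0 within them (r = 0.0233).

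The LHB1B2 feature is annotated with a single gene, but the LHCB1 genes of Arabidopsis are close copies of each other, and how far transcripts of the other copies bind to this feature was not tested.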

How the data were processed

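The intensity values were deposited by the authors as 1 table of 3439 features by 12 arrays. For scanner, background correction and normalization the sources used here give nothing. Scale and centring are therefore unknown, and that the values are linear was inferred from exact zeros and the absence of negative values. Depth has no meaning for arrays, and their number limits the precision. Groups and replicate numbers follow the titles in the labels. Features were named by the platform annotation, with symbols brought up to date from RefSeq (assembly TAIR10.1) for 690 of the 692 with 1 gene. A further 870 had several genes and 1877 no name in it. The array's genome build is unknown, so coordinates are left out.

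Log2 intensities, with zeros as missing values, were quantile normalized, and the 2364 features measured on 4 or more arrays of each group were kept. The 2 groups were fitted with limma 3.58.1 (R 4.3.3). Tests were two-sided, p-values were adjusted by Benjamini-Hochberg over every tested feature, and the threshold of a call was an adjusted p of 0.05. Differences are log2, recovery minus light adapted. Alternatives were the deposited scale, centring on the median, on the brightest 25% of features or on the total, cyclic loess, a pseudocount of 0.01, other filters, the replicate number as a block, sets of arrays averaged or as a random block, and leaving out arrays. The fitting step was also run on simulated data with 200 changed features, and no result given here rests on that run. Figures were made in Python 3.11.15 with matplotlib 3.10.9.

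Same-numbered arrays were taken as paired because of their values, as the labels do not explain the numbers. Over 1429 features, deviations from the group mean correlated within each of the 6 pairs (r from 0.108 to 0.193), and each of the 12 arrays was closest to the one of its own number in the other group. Genes named besides the 5 are those of a fixed list of 71 that were alone on a feature, and the 2 features most like each gene by 2 measures. The genes, the list, the alternatives and the sets were chosen with earlier results of these data known.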

Additional observations from a re-analysis of the deposited data

How the results depend on the processing

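PSBW kept its sign and call in every fit run. LHB1B2 turned after median centring (0.22, also with the replicate block) and lost its call on the deposited scale (-0.77), there also with sets averaged, unpaired or paired (-0.77 each), and when centred on the brightest 25% of features with the replicate block (-0.60). PSB27 gained a call with cyclic loess (-1.46), the replicate block (-1.35), the deposited scale with the replicate block (-1.44), total scaling (-1.45), the brightest 25% with the replicate block (-1.27) and without arrays 5 and 6 of both groups (-1.71). Leaving out single arrays gave -1.005 to -1.78 for PSB27, and leaving out pairs on the deposited scale with the replicate block gave -1.19 to -1.67.

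PSBY gained a call after median centring (1.39, also with the block) and on the brightest 25% (0.56, also with the block), and turned without arrays 5 and 6 (-0.018). PSAN turned on the deposited scale (0.0167, also with the block and with sets averaged), under total scaling (0.0083), on the brightest 25% (0.19, also with the block) and after median centring (1.01, also with the block). Without single arrays it was -0.19 to -0.35, and without single pairs in the paired deposited-scale fit -0.068 to 0.088. LPA19 turned on the deposited scale (-0.75, also with the block and with sets averaged), under total scaling (-0.75) and on the brightest 25% (-0.58, also with the block). It was called as lower under total scaling, and on the deposited scale with the block for all pairs and without pair 5. Without single pairs in that paired fit it was -0.59 to -0.93, and without single arrays after quantile normalization 0.11 to 0.37. The causes were not tested.

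The count of called genes was 1 in place of 2 on the deposited scale (46.4% of all features), and there also with sets averaged, unpaired (24.5%) or paired (22.3%). It was 3 with cyclic loess, total scaling, median centring or the brightest 25%, both centrings also with the replicate block. With that block it was also 3 after quantile normalization and on the deposited scale, there also without any 1 pair. Without light-adapted replicate 6, or without arrays 5 and 6 of both groups, it was 3 too. In the fits with 3, the share of all features called ran from 34.1% to 48.6%. Over all features, 873 were called after quantile normalization and 1096 on the deposited scale, 405 with sets averaged, and 578 and 527 with sets averaged on the deposited scale, unpaired and paired. Higher and lower calls numbered 438 and 435 after quantile normalization, 226 and 870 on the deposited scale and 646 and 323 after median centring. Zeros were dropped before the quantile step, and with a pseudocount in their place PSBY was at 0.33 and PSAN at -0.17, neither called.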
